A study of Mus musculus with 6 samples.

Results

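The proteasome genes of mouse myocardium were compared between mice injected with STZ, the agent used here to make mice diabetic, and mice injected with PBS as the control. Members were all protein-coding genes whose mouse symbol starts with Psma, Psmb, Psmc, Psmd, Psme, Psmf or Psmg. This gave 50 genes of the 55401 listed, among 21897 protein-coding genes. They hold the subunits of the 20S core and the 19S cap, the inducible catalytic subunits, activators, an inhibitor and assembly chaperones. The rule also takes Psmc3ip, a factor of meiotic recombination that is not a proteasome subunit, and it is reported apart. The rule takes neither Pomp, Adrm1 nor Sem1, which serve the proteasome under other symbols and were followed as a separate list.

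The proteasome degrades proteins that carry ubiquitin chains. Its barrel-shaped 20S core holds the proteolytic sites inside stacked rings of alpha and beta subunits, and its 19S cap binds ubiquitin, unfolds the substrate with a ring of ATPases and feeds it into the core. Under interferon, inducible beta subunits take the place of the constitutive catalytic ones in newly built cores, giving the immunoproteasome, which favours peptides for class I antigen presentation. In heart muscle the system turns over sarcomeric, signalling and damaged proteins, and the transcription factor Nfe2l1 raises proteasome genes together when proteolytic activity runs short.

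All 6 libraries came from myocardium of male wild-type (WT) mice, 3 after PBS and 3 after STZ injection, and all carry a time label of 8 weeks whose starting point is not given. No label says that each library stands for an animal of its own, so the p-values rest on the spread among libraries, part or all of which could be technical. The file of PBS replicate 3 lists 7711 genes (13.92%), among them 31 of the 50 proteasome genes. It stays out of the main comparison, which sets PBS replicates 1 and 2 against 3 STZ libraries, and its values stand beside the others where it lists a gene. Values are FPKM, fragments scaled to transcript length and to the mapped total of the library, so levels can be set side by side between genes.

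The summed FPKM of the 5 complete files ran from 531384 to 589719, of which mitochondrial genes made up 41.97% to 47.3%. From the spacing of low values, 1 FPKM over a kilobase of transcript was estimated roughly to stand for 18.5 to 22.6 fragments. Summed cardiomyocyte markers were 13666 and 14436 FPKM after PBS and 10825 to 12440 after STZ. Of the 8 tested, 1 was lower past the threshold (Actc1, the cardiac actin), against 2.17% of all genes. Mean Actc1 was 4861 FPKM after PBS and 3004 after STZ, and mean Myh6 3004 and 2336. The list was mixed, with 2 of 8 log2 differences of FPKM + 1 positive, Tnnt2 (0.36) and Actn2 (0.18). All 8 of those markers were present in every complete library, as the tissue label says. Summed atrial markers ranged widely within each group, from 306.8 to 1339 FPKM after PBS and from 966.9 to 3324 after STZ. Nppa made up 1590.89 of the 1592 FPKM of STZ replicate 3. Myl7 fell with replicate number in both groups. It was at 262.36, 37.86 and 0.21 FPKM after PBS and at 357.43, 73.69 and 0.28 after STZ. Myl4, Sln and Dkk3 kept this order where listed, while Nppa after STZ and Bmp10 after PBS did not. The part of this difference in the values of proteasome genes was not tested.

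Sequence near the start of 2 proteasome genes is shown first, because these genes encode the constitutive and the inducible form of the same catalytic subunit and differ in the motif found there. Letters are from RefSeq on GRCm38.p6, 5′ to 3′ on the strand of the gene. The stretch of Psmb5 is chr14:54618023-54618245 on the minus strand, from 250 to 28 bases before the annotated start. Its capitals mark the core of an antioxidant response element, TGACNNNGC, the kind of site that Nfe2l1 and Nfe2l2 bind with small Maf partners. The stretch of Psmb8 is chr17:34198088-34198116 on the plus strand, where the capitals mark a gamma-activated site, TTCNNNGAA, a kind of interferon gamma response site, with 10 bases on each side.
Psmb5: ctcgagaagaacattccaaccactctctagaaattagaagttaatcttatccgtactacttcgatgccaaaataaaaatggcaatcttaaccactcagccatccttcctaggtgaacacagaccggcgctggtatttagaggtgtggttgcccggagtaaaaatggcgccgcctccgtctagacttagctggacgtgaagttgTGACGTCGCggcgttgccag
Psmb8: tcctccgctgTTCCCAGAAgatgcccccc
The match of Psmb5 lies 47 to 39 bases before the start and outside the exons of GENCODE M21, and that of Psmb8 lies 97 to 89 bases before the start, inside an exon that this annotation gives the gene.

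RefSeq promoters, 250 bases before to 50 after the start, matched 42 of the 50 proteasome genes, and both strands were searched for 4 motifs. The antioxidant response element core was found in 6 of the 42 (14.3%), namely Psmb5, Psmb6, Psmc6, Psmd9, Psmd12 and Psme4, against 14% of 27025 genes with a promoter. The CCAAT box was found in 15 (35.7%), against 41.1% of all genes. The interferon-stimulated response element, GAAANNGAAA, was found in 5 (11.9%), namely Psmb3, Psmd4, Psmd9, Psme1 and Psmg4, against 3.99%. The gamma-activated site was found in 3 (7.14%), namely Psmb8, Psmd2 and Psmg1, against 9.55%. No match overlapped a match of another motif in these promoters. A match describes letters in this window and shows no binding.

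The proteasome genes as a group stayed close to their control levels, and none passed the test. Of 48 genes tested with limma, 0 had an adjusted p under 0.05, where 5.82% of the 11556 genes tested did (3.64% higher and 2.17% lower after STZ). At an unadjusted p under 0.05 there were 5 of 48 (10.42%), against 26.6% of all genes. Differences are given as log2 of FPKM + 1, STZ minus PBS. Their median over the 48 genes was 0.01, beside 0.06 over all genes tested, and they ran from -0.49 for Psme4 to 0.57 for Psmb9. The split into 26 positive and 22 negative signs, where 57% of all genes were positive, depended on the scaling, becoming 33 and 15 with TPM, 19 and 29 with median centring and 18 and 30 with quantile normalization.

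The differences of proteasome genes were small beside those of other genes. Their median size was 0.12, against 0.24 over all genes tested. A size under 0.3 was found for 42 of 48 (87.5%), against 59.8% of all genes, and a size of 1.5-fold (0.58) or more for 0 of 48, against 14.3%. These folds are of FPKM + 1, which makes differences smaller than in FPKM itself. In mean FPKM, Psmb9, Psmd4 and Psmg4 were 78.43%, 51.27% and 51.19% higher after STZ, and the largest fall was that of Psme4 (-29.63%). The 95% interval, also on FPKM + 1, lay within 1.5-fold in either direction for 39 (81.25%), against 41.5%, and within 2-fold for 46 (95.83%), against 81%. These intervals rest on the spread among libraries, part or all of which could be technical, so they may not bound a difference between animals. Among genes with a mean of at least 5 FPKM, 34 of 40 proteasome genes (85%) had an interval within 1.5-fold, against 40.4%, and 39 (97.5%) within 2-fold, against 78.7%. The groups did not overlap for 18 of 48 genes (37.5%), 12 higher and 6 lower after STZ, against 47.4% of all genes (28.7% and 18.8%).

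**Figure D1:**
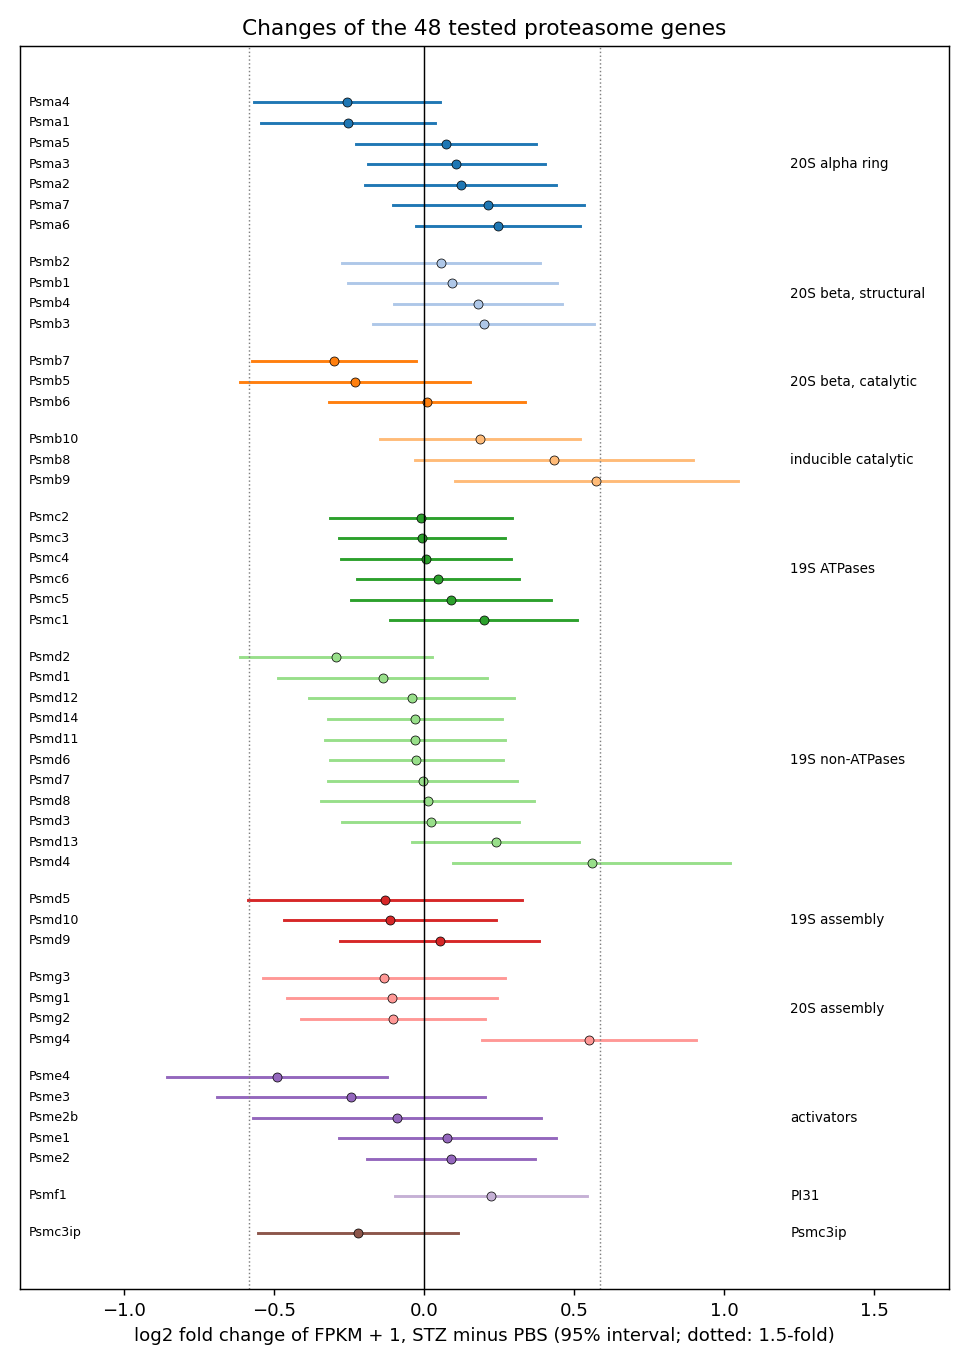
Log2 difference of FPKM + 1 between STZ and PBS for each of the 48 tested proteasome genes, ordered within its role, with bars for the 95% interval from limma and dotted lines at 1.5-fold. Intervals of 39 genes stay between the dotted lines; Psmb9, Psmd4 and Psmg4 lie farthest to the right and Psme4 farthest to the left.

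**Figure D2:**
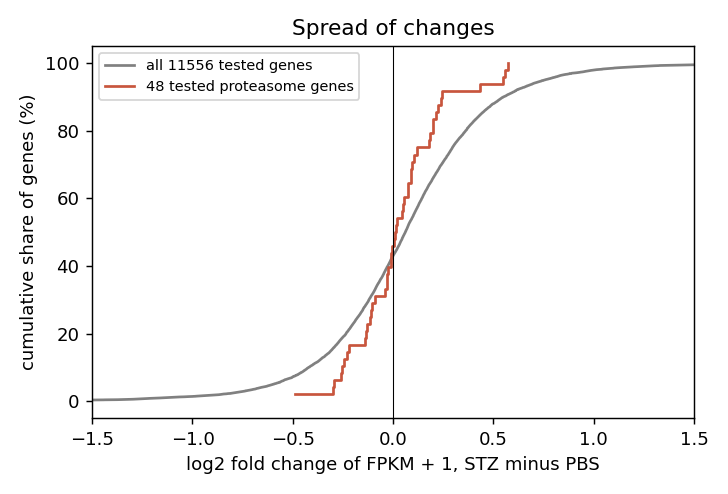
Cumulative share of genes, in percent, against the log2 difference of FPKM + 1, for the 48 tested proteasome genes and for all 11556 tested genes. The proteasome curve is the steeper one and spans -0.49 to 0.57.

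Totals over the complex were nearly level in FPKM. All 50 genes together gave 1040 and 1073 FPKM after PBS and 1028, 1068 and 1113 after STZ. As a share of the summed FPKM of the library this was 0.1774% and 0.182% after PBS and 0.1804%, 0.2009% and 0.1914% after STZ. The 20S core genes, Psma1 to Psma7 and Psmb1 to Psmb7, gave 456.3 and 479.9 FPKM after PBS and 450, 452.3 and 505.4 after STZ. The 19S cap genes gave 423.5 and 427 FPKM after PBS and 424.1, 450.3 and 444.4 after STZ. The groups overlapped in all 3 sums, with STZ replicate 3 the highest in the core and STZ replicate 2 the highest in the cap. The ratio of cap to core was 0.9281 and 0.8897 after PBS and 0.9424, 0.9955 and 0.8794 after STZ, so that the STZ values lay on both sides of the PBS values.

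The alpha ring forms the outer gate of the core. Of its 7 tested genes, 5 had a positive and 2 a negative difference, with a median of 0.11, and these signs were the same under the 4 other scalings. Psma6 had the highest level of the ring, at 66.9, 72.1 and 74.3 FPKM in PBS replicates 1, 2 and 3 and at 80.5, 84.8 and 82.2 in STZ replicates 1, 2 and 3. All 3 STZ values of Psma6 lay above all 3 PBS values, with a log2 difference of 0.24 and an adjusted p of 0.226. Psma4 stood at the other end of the ring, at 24.6 and 27.4 FPKM after PBS and at 19.96, 21.7 and 23.1 after STZ (log2 difference -0.26, adjusted p = 0.254). The smallest difference of the ring was that of Psma5, at 0.07. Psma8, the alpha subunit of the testis, was not tested, with 0.11 to 0.24 FPKM in the complete libraries.

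The values of Psma3, the lowest tested of the ring, are uncertain. The processed pseudogene Gm13835 on chromosome 6 (31141979 to 31142663) is identical to Psma3 over 685 bases and was listed at 22.99 and 22.83 FPKM after PBS and at 21.03, 18.21 and 24.57 after STZ. Psma3 itself was listed at 8.75 and 10.1 FPKM after PBS and at 9.98, 10.6 and 10.1 after STZ. The level given to the copy was thus 221% of that of the gene, and how reads were shared between them is not given. Their sums overlapped between groups, with 31.74 and 32.95 FPKM after PBS and 31.01, 28.79 and 34.64 after STZ. In all, 11 proteasome genes had such a copy elsewhere (at least 95% identity over at least 300 bases), and for 7 of them (Psma3, Psma4, Psma5, Psmb3, Psmd11, Psme2 and Psme2b) a copy had at least 10% of the FPKM of the gene.

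The structural beta subunits Psmb1 to Psmb4 complete the inner rings without a mature catalytic site. All 4 differences were positive in the values as deposited, from 0.05 for Psmb2 to 0.20 for Psmb3, and that of Psmb2 turned negative with median centring and with quantile normalization. The most abundant of them, Psmb4, was at 41.2, 43.4 and 43.6 FPKM after PBS and at 46.4, 47.1 and 50.5 after STZ. These groups of Psmb4 did not overlap (log2 difference 0.18, adjusted p = 0.371). The lowest level was that of Psmb1, with a mean of 16.2 FPKM.

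The 3 constitutive catalytic subunits carry the proteolytic activity of the standard core. Psmb5 (chromosome 14, 54614119 to 54618022), the chymotrypsin-like subunit, had the highest mean of the proteasome genes over the 5 complete libraries. After STZ alone the mean of Psma6 was higher (82.48 against 77.61 FPKM). Psmb5 was at 84.8, 97.1 and 91.9 FPKM in PBS replicates 1, 2 and 3. In STZ replicates 1, 2 and 3 it was at 71.2, 70.8 and 90.9 FPKM. STZ replicates 1 and 2 lay below every PBS value, while STZ replicate 3 lay within the PBS range (log2 difference -0.23 ± 0.16 (SE), 95% interval -0.62 to 0.15, adjusted p = 0.393). The difference of Psmb5 was -0.14 without PBS replicate 2 and -0.35 without STZ replicate 3.

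Psmb7 (chromosome 2, 38588036 to 38644087), the trypsin-like subunit, was at 39.3, 36.6 and 38.9 FPKM after PBS and at 30.8, 30.3 and 30.6 after STZ. Every STZ value of Psmb7 lay below every PBS value, and the SD of the 3 STZ libraries was 0.251 FPKM. Its log2 difference was -0.30 ± 0.11 (SE, 2 PBS and 3 STZ libraries), with a 95% interval of -0.58 to -0.03 and an adjusted p of 0.155. Exons of Nek6 on the opposite strand cover 11.84% of the exon length of Psmb7, and whether the counting used strand is not given. Psmb6 (chromosome 11, 70525367 to 70527858), the caspase-like subunit, was at 44.1, 45.5 and 47.97 FPKM after PBS and at 41.2, 43.8 and 50.7 after STZ. The groups of Psmb6 overlapped throughout (log2 difference 0.01 ± 0.13 (SE), 95% interval -0.32 to 0.33, adjusted p = 0.972), and its sign turned under 3 of 4 other scalings.

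The inducible catalytic subunits were expressed at lower levels and all 3 differences were positive, under each scaling tried. Psmb8 (chromosome 17, 34197721 to 34201454), which replaces Psmb5, was at 2.39, 3.24 and 2.46 FPKM in PBS replicates 1, 2 and 3 and at 3.26, 5.09 and 4.16 in STZ replicates 1, 2 and 3. The groups of Psmb8 did not overlap, but PBS replicate 2 and STZ replicate 1 nearly met. Its log2 difference was 0.43 ± 0.19 (SE), with a 95% interval of -0.03 to 0.89 and an adjusted p of 0.21, and without PBS replicate 1 the difference was 0.27. Psmb9 (chromosome 17, 34181987 to 34187764), which replaces Psmb6, was at 2.02 and 1.41 FPKM after PBS and at 2.50, 2.74 and 3.94 after STZ. All STZ values of Psmb9 lay above both PBS values, and its difference was the largest of all proteasome genes (0.57 ± 0.20 (SE), 95% interval 0.10 to 1.05, adjusted p = 0.129). Psmb10 (chromosome 8, 105935735 to 105938444), which replaces Psmb7, was at 13.1 and 15.9 FPKM after PBS and at 15.4, 17.7 and 16.6 after STZ. The groups of Psmb10 overlapped (0.19 ± 0.14 (SE), 95% interval -0.15 to 0.52, adjusted p = 0.43). The difference of Psmb10 was 0.05 without PBS replicate 1 and 0.32 without PBS replicate 2. Psmb11, the form of thymic epithelium, was listed at 0.01 FPKM in PBS replicate 1 and at 0 in the other 4 complete libraries, and was not tested.

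**Figure D3:**
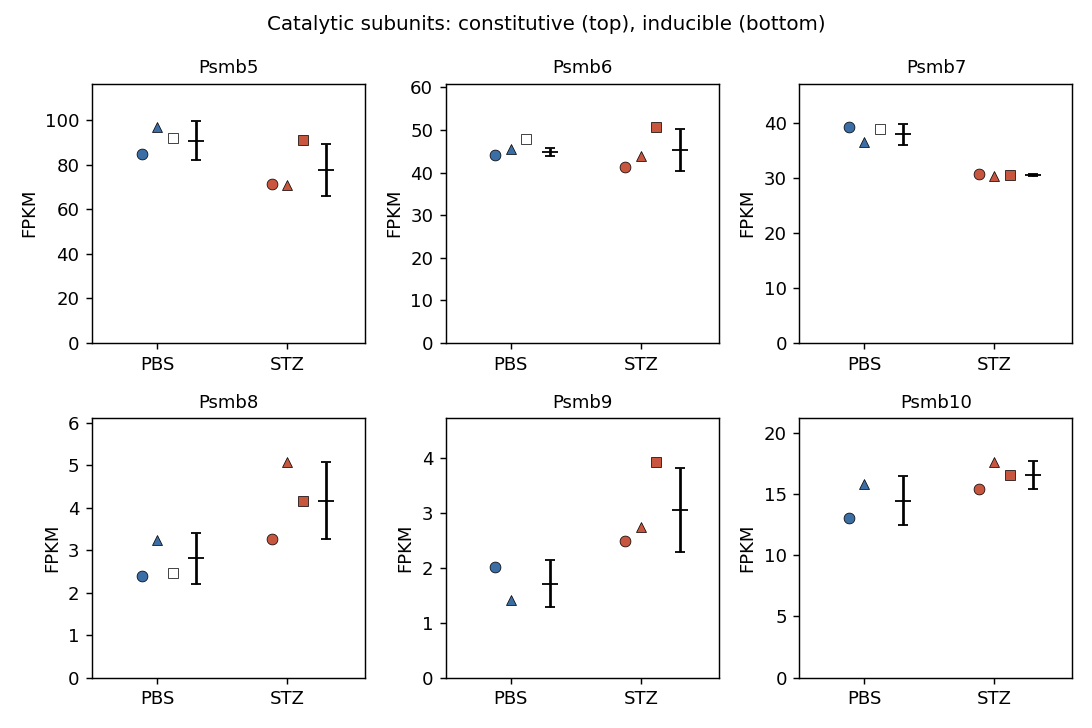
FPKM of the constitutive catalytic genes Psmb5, Psmb6 and Psmb7 (top) and of the inducible Psmb8, Psmb9 and Psmb10 (bottom) in each library; circle, triangle and square are replicates 1, 2 and 3, the open square is PBS replicate 3, and black marks with bars are the mean ± SD of the libraries in the test. Psmb7 is lower in all 3 STZ libraries and Psmb9 higher in all 3, while Psmb6 overlaps.

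Set together, the inducible genes took a larger share of the catalytic FPKM in each STZ library. Psmb8, Psmb9 and Psmb10 made up 9.407% and 10.28% of the summed FPKM of the 6 catalytic genes after PBS and 12.87%, 14.96% and 12.53% after STZ. The means were 9.84% ± 0.615 (SD, n = 2) and 13.5% ± 1.32 (SD, n = 3), and the groups did not overlap. The inducible sum was 17.46 and 20.51 FPKM after PBS and 21.14, 25.48 and 24.66 after STZ, without overlap. The constitutive sum was 168.1, 179.1 and 178.8 FPKM after PBS and 143.1, 144.8 and 172.2 after STZ, and only STZ replicate 3 lay within the PBS range. Within pairs, Psmb8 made up 2.743%, 3.231% and 2.606% of Psmb8 plus Psmb5 after PBS and 4.381%, 6.711% and 4.375% after STZ. Psmb9 made up 4.379% and 3.008% of Psmb9 plus Psmb6 after PBS and 5.722%, 5.889% and 7.207% after STZ. Psmb10 made up 24.94% and 30.26% of Psmb10 plus Psmb7 after PBS and 33.32%, 36.82% and 35.14% after STZ. No pair overlapped between groups, but the pairs reuse the genes of the share. Psmb10 alone overlapped, while its partner Psmb7 was lower in every STZ library. Of all single genes tested, 47.4% did not overlap between the PBS and STZ libraries of the main comparison. The share and the pair percentages were given no test, because the genes in them were chosen together.

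**Figure D4:**
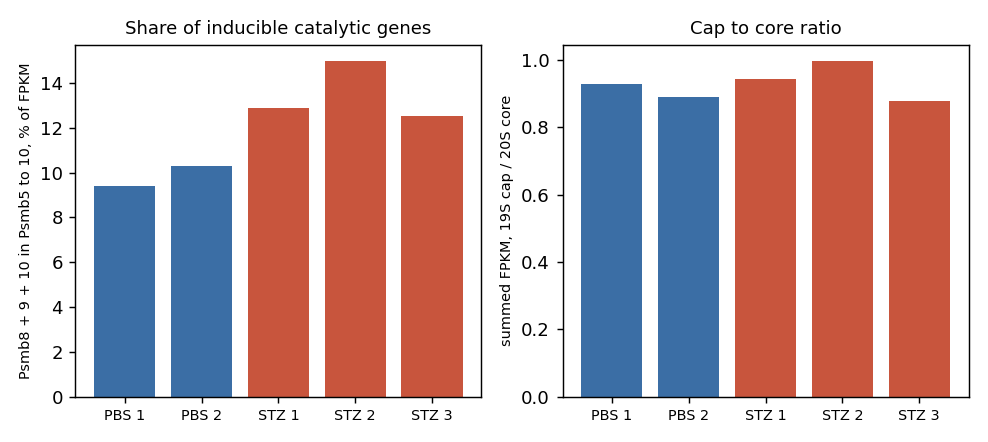
Left, share of Psmb8, Psmb9 and Psmb10 in the summed FPKM of the 6 catalytic genes, in percent; right, ratio of summed FPKM of 19S cap to 20S core genes; one bar for each complete library. The share is 9.407% and 10.28% after PBS and at least 12.53% after STZ, while the ratio runs from 0.8794 to 0.9955 with the groups mixed.

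Leukocytes are known for high levels of inducible subunits, and in bulk tissue a different number of cells of a type and a different amount of RNA per cell cannot be told apart. Summed leukocyte markers were 179.9 and 177.6 FPKM after PBS and 140.5, 200.5 and 173.2 after STZ. Of 10 tested among 16, the neutrophil genes S100a8 and S100a9 rose and none fell past the threshold. The list was not uniform: 3 of the 10 differences were positive, against 57% of all genes, and the median was -0.24. An unadjusted p under 0.05 in limma was found for 5, against 26.6% of all genes. The 3 of these that did not pass were macrophage and antigen-presenting cell genes with negative differences, Cd74 (-0.87), Adgre1 (-0.69) and Csf1r (-0.37). Ptprc, the pan-leukocyte antigen, was under 1 FPKM in all 5 libraries, as were Cd3e, Cd3g, Cd79a, Cd79b and Nkg7. Summed endothelial markers were 145.6 and 145.7 FPKM after PBS and 151.8, 169 and 189.1 after STZ, with 0 of 8 past the threshold and 3 with an unadjusted p under 0.05 in limma. Summed fibroblast markers were 446.7 and 417.7 FPKM after PBS and 457.5, 406.3 and 407.2 after STZ. Gsn made up 318.3 of their mean of 432.2 FPKM after PBS. Of the 8, Col1a1, Col1a2 and Col3a1 were lower past the threshold, against 2.17% of all genes. The list was mixed, with 4 of 8 differences positive, among them Dcn (0.38) and Pdgfra (0.37), which did not pass. Red blood cell markers were 310.2 and 282.9 FPKM after PBS and 329, 959.1 and 360.8 after STZ. No marker of the 6 lists was at 0 in all 5 libraries, and the part of these cell types in the inducible share was not tested.

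Psmb8 and Psmb9 lie side by side on chromosome 17 with the peptide transporter genes. Exons of Gm20496 on the opposite strand cover 14.73% of Psmb8, and exons of Tap1 cover 5.79% of Psmb9. Tap1, a transporter subunit that carries proteasome products to class I molecules, was at 1.45 and 1.58 FPKM after PBS and at 3.67, 2.05 and 4.15 after STZ (log2 difference 0.74, adjusted p = 0.116). The highest library was STZ replicate 3 for both Psmb9 and Tap1, but STZ replicate 2 for Psmb8.

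The 6 ATPases of the 19S cap, Psmc1 to Psmc6, unfold the substrate. Their differences ran from -0.01 to 0.20 with a median of 0.03, and all 6 were positive with TPM while 4 were negative with median centring. Psmc3 had the highest level, at 57.5, 58.5 and 58.1 FPKM after PBS and at 54.5, 59.2 and 59.2 after STZ. Psmc1 had the largest difference, at 48.1, 50.6 and 45.8 FPKM after PBS and at 59.9, 59.6 and 51.1 after STZ (0.20, adjusted p = 0.371). Psmc1 did not overlap between groups, although STZ replicate 3 stood only just above PBS replicate 2. Psmc2, which had the lowest mean (14.3 FPKM), was at 15.3, 13.6 and 14.9 FPKM after PBS and at 13.3, 14.9 and 14.8 after STZ.

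Among the 11 non-ATPase subunits of the cap, 4 differences were positive and 7 negative, with a median of -0.03. Psmd4 (chromosome 3, 95032694 to 95042614), a ubiquitin receptor, was at 19.4, 22.0 and 21.9 FPKM in PBS replicates 1, 2 and 3 and at 25.9, 29.2 and 38.8 in STZ replicates 1, 2 and 3. Every STZ value of Psmd4 lay above every PBS value, and STZ replicate 3 stood well above the other STZ libraries. The log2 difference of Psmd4 was 0.56 ± 0.19 (SE), with a 95% interval of 0.10 to 1.02 and an adjusted p of 0.13. Without STZ replicate 3 the difference of Psmd4 was 0.40. Psmd2 (chromosome 16, 20651652 to 20663414), the large scaffold that docks ubiquitin shuttles, was at 40.2, 36.9 and 37.6 FPKM after PBS and at 33.4, 32.4 and 28.1 after STZ. All 3 STZ values of Psmd2 lay below all 3 PBS values (-0.30, 95% interval -0.61 to 0.02, adjusted p = 0.213). Psmd13 was at 11.6, 12.1 and 12.5 FPKM after PBS and at 13.5, 14.8 and 14.2 after STZ, without overlap (0.24, adjusted p = 0.246), but Sirt3 exons cover 10.13% of its exon length from the opposite strand. The deubiquitinase Psmd14, which removes the chain before degradation, was at 10.7, 10.1 and 10.3 FPKM after PBS and at 10.3, 9.48 and 10.8 after STZ, with groups that overlapped. The smallest difference was that of Psmd7, its inactive partner, at -0.01. Mean levels of the group ran from 7.6 FPKM for Psmd11 to 34.3 for Psmd7.

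The assembly chaperones stood at lower levels. Psmg1 to Psmg4 build the alpha ring in pairs, and Psmg4 (chromosome 13, 34162964 to 34178173) had the smallest p of all proteasome genes. It was at 7.55 and 9.51 FPKM after PBS and at 11.8, 12.8 and 14.1 after STZ, with every STZ value above both PBS values. Its log2 difference was 0.55 ± 0.15 (SE), with a 95% interval of 0.19 to 0.90 and an adjusted p of 0.0806. The other chaperones of the family, Psmg1, Psmg2 and Psmg3, had differences of -0.11, -0.11 and -0.13, each with overlapping groups. Psmg3, which pairs with Psmg4, was at 1.62, 1.71 and 1.85 FPKM after PBS and at 1.03, 1.68 and 1.63 after STZ. Psmg4 has the shortest exon length of the tested proteasome genes, 555 bases, and the 1306 tested genes with under 1000 bases had a median log2 difference of 0.23, against 0.06 for all genes. Set against the PBS mean, the median of these short genes was 0.13, 0.19 and 0.31 in STZ replicates 1, 2 and 3. The part of length in the value of Psmg4 was not tested.

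The chaperones of cap assembly were low as well. Psmd5, Psmd9 and Psmd10 had mean levels of 1.47, 1.78 and 4.73 FPKM, and their differences were -0.13, 0.05 and -0.11. Psmd5 differed among the STZ libraries, at 1.16, 1.09 and 1.93 FPKM, against 1.45, 1.74 and 1.49 after PBS. The groups overlapped for all 3 genes.

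The alternative activators open the core in place of the 19S cap. Psme4 (chromosome 11, 30771726 to 30880361), the PA200 activator that takes part in degrading acetylated histones, was at 31.2 and 27.3 FPKM after PBS and at 22.4, 21.7 and 17.6 after STZ. Every STZ value of Psme4 lay below both PBS values, and its difference was the most negative of all proteasome genes (-0.49 ± 0.15 (SE), 95% interval -0.86 to -0.12, adjusted p = 0.108). Psme4 has the longest exon length among them, 8382 bases, and the 1662 tested genes of at least 8000 bases had a median log2 difference of 0.04. Set against the PBS mean, their median was 0.03, 0.11 and -0.02 in STZ replicates 1, 2 and 3. The part of length in the value of Psme4 was not tested. Psme3, the nuclear PA28 gamma activator, was at 18.9 and 18.5 FPKM after PBS and at 16.7, 18.6 and 12.3 after STZ, with STZ replicate 3 the lowest and groups that overlapped (-0.24, adjusted p = 0.438).

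Psme1 and Psme2 encode the interferon-inducible PA28 alpha and beta subunits that work with the immunoproteasome. Psme1 was at 23.8, 27.0 and 28.0 FPKM after PBS and at 24.5, 25.3 and 31.0 after STZ, with groups that overlapped (0.08, 95% interval -0.29 to 0.44). Psme2 and its copy Psme2b are 99.37% identical over 794 bases, so their separate values are uncertain. Their sum was 30.46 and 32.53 FPKM after PBS and 27.11, 34 and 33.59 after STZ, with STZ libraries on both sides of the PBS values.

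**Figure D5:**
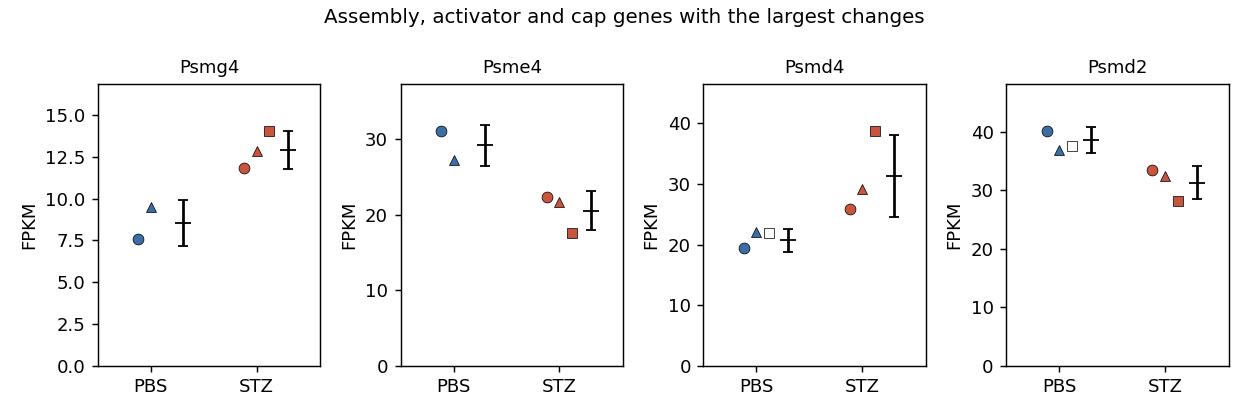
FPKM in each library of the assembly chaperone Psmg4, the activator Psme4 and the cap subunits Psmd4 and Psmd2; circle, triangle and square are replicates 1, 2 and 3, the open square is PBS replicate 3, and black marks with bars are the mean ± SD of the libraries in the test. The 4 genes were chosen for the largest differences among assembly, activator and cap genes. The groups do not overlap in any of them, as in 47.4% of all genes tested in the 5 complete libraries. STZ replicate 3 is the most extreme STZ library in each.

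Psmf1, which encodes the regulator PI31, was at 2.28 and 2.44 FPKM after PBS and at 3.36, 2.67 and 2.76 after STZ, without overlap (0.22, adjusted p = 0.332). Psmc3ip had the lowest mean of the tested genes, 1.05 FPKM, and was at 1.21, 1.27 and 0.62 FPKM after PBS and at 0.81, 1.07 and 0.89 after STZ. The value of PBS replicate 3 lay below all STZ values of Psmc3ip, so that its groups, apart in the 5 complete libraries, overlapped once this library was set beside them.

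PBS replicate 3 bears on other genes too. Of 11 genes whose groups did not overlap and which its file lists, 8 still did not overlap with it (Psma6, Psmb4, Psmb7, Psmb8, Psmc1, Psmd2, Psmd4 and Psmd13), and Psma7, Psmc6 and Psmc3ip did. Its value lay within the range of the other PBS libraries for 13 of the 31 genes it lists. When all 6 libraries were tested over the 4824 genes that all 6 files list, 2 of 31 proteasome genes passed in limma, where 20.5% of all genes did (12.6% higher and 7.9% lower). Psmd4 rose (0.53, adjusted p = 0.0421) and Psmb7 fell (-0.31, adjusted p = 0.035) in that test, and 7 of 31 had an unadjusted p under 0.05 against 35.7% of all genes. With the 5 complete libraries over the same genes, 0 of 31 passed, against 7.9% of all (4.68% higher and 3.21% lower). With 6 libraries and the replicate number as a block, Psmd4 and Psmb8 (0.48, adjusted p = 0.0385) were higher past the threshold and none was lower, against 9.41% and 6.22% of all genes. In the 6 libraries the groups did not overlap for 8 of 31 (25.81%), against 41.9% of all genes.

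Genes that work with the proteasome under other symbols were followed as lists. Of 14 tested partners, which mature, tether or recruit substrates to the complex, 0 passed in limma, with a median difference of -0.03. An unadjusted p under 0.05 in limma was found for 2, against 26.6% of all genes. Ecpas, an adaptor that binds the assembled proteasome, was at 11.4 and 10.9 FPKM after PBS and at 7.39, 8.75 and 7.93 after STZ (-0.43, adjusted p = 0.0928). Akirin2, which brings proteasomes into the nucleus, was at 13.5, 15.0 and 15.3 FPKM after PBS and at 18.95, 18.4 and 17.1 after STZ (0.33, adjusted p = 0.153). For both genes the groups did not overlap. Of 11 tested genes for the segregase Vcp, which pulls ubiquitinated proteins out of complexes, and its cofactors, 0 passed and 1 had an unadjusted p under 0.05 (Plaa, -0.30, adjusted p = 0.18), with a median of -0.04.

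The Nfe2l1 pathway, which controls proteasome genes, had 1 of 9 tested genes past the threshold, against 5.82% of all genes. Its median difference was 0.35, beside 0.06 over all genes tested, and 6 of 9 differences were positive. An unadjusted p under 0.05 in limma was found for 5, against 26.6% of all genes, among them Nrd1 with a negative difference (-0.37, adjusted p = 0.142). Maff, a small Maf partner, rose from 3.42 and 2.05 FPKM after PBS to 5.82, 8.07 and 7.69 after STZ (1.15 ± 0.21 (SE), adjusted p = 0.0366). Mafk, another small Maf, was at 9.81, 9.61 and 11.7 FPKM after PBS and at 13.7, 12.7 and 12.6 after STZ, without overlap (0.38, adjusted p = 0.101). Nfe2l1 itself was at 24.4 and 22.9 FPKM after PBS and at 21.8, 25.5 and 12.2 after STZ. Its level in STZ replicate 3 was thus far below that of the other 4 libraries (-0.30, adjusted p = 0.553). Proteasome genes with an antioxidant response element core in the RefSeq window had differences of either sign, from -0.49 for Psme4 and -0.23 for Psmb5 to 0.05 for Psmd9.

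Genes upstream of the proteasome held single calls, where 5.82% of all genes tested passed. Of 5 tested genes for ubiquitin and its activating enzymes, the polyubiquitin gene Ubb rose, from 236.9, 234.8 and 250.2 FPKM after PBS to 343, 346 and 424.7 after STZ (0.65 ± 0.14 (SE), adjusted p = 0.0491). Every STZ value of Ubb lay above every PBS value. Of 22 tested ubiquitin ligases of striated muscle, Fbxo31, an F-box protein, rose from 18.1 and 15.4 FPKM after PBS to 35.9, 37.2 and 29.5 after STZ (0.98 ± 0.15 (SE), adjusted p = 0.0256), and none fell past the threshold. Fbxo40, a muscle F-box protein, was at 44.8 and 39.9 FPKM after PBS and at 30.9, 33.1 and 27.1 after STZ (-0.47, adjusted p = 0.0976).

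Genes of class I antigen processing and the interferon response, which share control with the inducible subunits, had 2 of 23 tested genes higher past the threshold and 0 lower. Of all genes tested, 3.64% were higher and 2.17% lower. H2-K1, a class I heavy chain, rose from 27.7 and 25.8 FPKM after PBS to 41.5, 54.8 and 64.7 after STZ (0.96 ± 0.20 (SE), adjusted p = 0.0465). Irgm1, an interferon-induced GTPase, rose from 2.73 and 3.05 FPKM to 5.85, 4.61 and 5.34 (0.68 ± 0.14 (SE), adjusted p = 0.0433). Over the list, 19 of 23 differences were positive, against 57% of all genes, with a median of 0.40. An unadjusted p under 0.05 in limma was found for 13, against 26.6% of all genes. The directions were not uniform: Isg15, an interferon-induced ubiquitin-like modifier named here after its values were seen, was at 6.64 and 7.55 FPKM after PBS and at 4.37, 4.55 and 4.65 after STZ (-0.55, adjusted p = 0.0508). The calls of Maff, Ubb, Fbxo31, H2-K1 and Irgm1 were each lost when PBS replicate 1 or PBS replicate 2 was left out, with adjusted p from 0.1 to 0.294. Those of Maff and Irgm1 were also lost without any 1 STZ library, those of Ubb and Fbxo31 without STZ replicate 1 or 2, and that of H2-K1 without STZ replicate 2 or 3 (adjusted p from 0.05 to 0.0927). With no filter on low values none of these 5 genes passed (adjusted p from 0.0773 to 0.126).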

How the data were processed

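Poly(A) RNA was sequenced from 6 myocardium libraries, with dUTP marking of the second strand per the labels' protocols. Each deposited file gives FPKM by gene, per the file headers, with 2 decimals. The submitters' processing notes name HISAT2 2.0.4, StringTie 1.3.4d, cutadapt 1.9 and GRCm38; strand setting, annotation release and any filter were not given in the sources used here. Since FPKM scale with the total of a library, a change in abundant genes moves the rest. Identifiers were matched to GENCODE M21 (55141 with a symbol, 260 without).

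The test took genes reaching 1 FPKM in 2 or more of the fitted libraries and used log2(FPKM + 1), a pseudocount of 1 that understates changes of low genes, in limma 3.58.1 in R 4.3.3 (eBayes with trend, two-sided, Benjamini-Hochberg over all tested genes, threshold 0.05). The test was run on simulated data with independent normal noise, a check that does not cover differences shared between libraries or between genes. PBS replicate 3 was left out of the main test because its file lists under 50% of the genes. Copies were found with blastn 2.17.0, and sums, shares and figures were made with pandas 2.3.3, numpy 2.4.6, scipy 1.17.1 and matplotlib 3.10.9.

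Members and lists were chosen with earlier results of these data known. Full values are given for members past the threshold, the 6 catalytic genes and the 2 largest differences in each direction; other members by role, with the highest and lowest level and the largest and smallest difference, and further members whose groups did not overlap or that are widely known; of related lists, genes past the threshold and up to 2 with the smallest p, some of which are not reported here. Tap1, Isg15, Nfe2l1, Nrd1, the named atrial markers and the other named markers that did not pass were added after their values were seen. Exon lengths and copies were looked at after the first results. Alternatives changed pseudocount, filter, scaling, moderation, threshold, replicate block and libraries, 1 choice at a time, except that the fits over the genes of all 6 files change the genes tested together with the libraries or the block.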

Additional observations from a re-analysis of the deposited data

How the results depend on the processing

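In every fit of the 5 complete libraries at the threshold of 0.05, including pseudocounts of 0.1 and 0.5, both filters, the 4 other scalings, both kinds of moderation, the replicate block and each library left out, limma called 0 proteasome genes, as did the fit with PBS replicate 3 added to the main gene set. The count of higher genes became 1 at a threshold of 0.1 (Psmg4), where 14.2% of all genes passed. It was 1 (Psmd4), with 1 lower (Psmb7), over the genes of all 6 files with 6 libraries, and 2 (Psmd4 and Psmb8) with 0 lower when a replicate block was added to that fit, where 15.6% of all genes passed; the last fit, and the 5 libraries over the same genes, were added after seeing the data.

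Whether replicate numbers pair the libraries was not settled. Same-numbered PBS and STZ libraries had correlations of their deviations of 0.1758, -0.04947 and 0.1507 over 4824 genes. Those of differently numbered libraries ran from -0.233 to 0.09254. The atrial marker Myl7 also fell with replicate number in both groups. With the replicate block the count of called proteasome genes in the 5 libraries was 0, and the median log2 fold change of the tested proteasome genes was -0.013. The block also ended the calls of Maff, Ubb, Fbxo31, H2-K1 and Irgm1, with adjusted p from 0.0603 to 0.129. That median moved to 0.078 with TPM, -0.059 with median centring and -0.049 with quantile normalization, where the median over all genes was 0.13, -0.0084 and -0.0036. With 1 library left out it ran from -0.013 (without STZ replicate 3) to 0.045 (without STZ replicate 1).

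The difference in the immunoproteasome share, that of Psmb8, Psmb9 and Psmb10, 3.61 percentage points, ran from 2.86 without STZ replicate 2 to 4.07 without STZ replicate 3. The difference in the ratio of 19S cap to 20S core, 0.0302, ran from 0.00201 without STZ replicate 2 to 0.06 without STZ replicate 3. Adding PBS replicate 3 to the share or the ratio was not run, since Psmb9, Psmb10 and other genes in them are not listed in its file. No difference of a proteasome gene past the threshold in any fit turned its sign; among the 48 that did not pass, 0 to 8 signs turned, depending on the setting.

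With 2 PBS libraries in the test, a single control library weighs heavily: without PBS replicate 1 or 2 the smallest adjusted p of any proteasome gene was 0.305 (Psmb9) or 0.217 (Psmg4). The lone PBS library is then assumed to vary like the STZ group. A gene that missed the threshold was not shown to be equal. The intervals bound its difference in FPKM + 1 only as far as the spread among libraries covers that among animals. The depth was estimated only roughly, so no counting error is given for low genes.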
